A study of Mus musculus with 32 samples.

Results

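The 10 genes described here set the pace of G1, the phase of the cell cycle that precedes DNA synthesis. They are the D-type cyclins Ccnd1, Ccnd2 and Ccnd3, the E-type cyclins Ccne1 and Ccne2, the cyclin-dependent kinases Cdk4 and Cdk6, and the kinase inhibitors Cdkn1b, Cdkn2c and Cdkn2d. They were taken by symbol, with no measured value in the rule, as 10 of the 55492 rows of the expression table. The choice was made with earlier results of these data known. All 10 passed the filter on low values and were among the 16276 genes tested.

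Messenger RNA was measured in mouse embryonic stem cells and in retinal organoids grown from them, in 32 libraries that form 16 groups of 2. WT denotes Rx:GFP cells, which by name carry GFP as a reporter for the retinal gene Rx (Rax). KO stands for the libraries labelled as a knockout of Mettl3, which encodes the active subunit of the complex that places N6-methyladenosine on RNA. The fusion line is the KO overexpressing wild-type METTL3 joined to a part that the labels call GRBD, grown without or with dexamethasone (Dex), a synthetic glucocorticoid given at 10 µM. The labels place the fusion protein in the cytosol without Dex and in the nucleus with it. Each line was sampled as stem cells on day 0 and as organoids on days 2, 4 and 6. The organoid medium held AGN at 0.1 µM in all lines, WT included, and AGN is not explained in the labels. The protocol lists Dex for 2, 4 and 6 days, while day 0 libraries of the Dex arm carry a Dex label too, and grouping here is by label. WT and KO cultures received no Dex, so no group shows Dex without the fusion. Whether a line is 1 clone, and whether duplicates were separate cultures, is not given in the sources used here. P-values therefore measure only the spread between libraries of a pair, which may be technical.

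Values are FPKM, fragments per kilobase of transcript scaled to the mapped fragments of the library, and a difference is in log2(FPKM + 1) with its standard error (SE). A gene was called at an adjusted p under 0.05 (limma, Benjamini-Hochberg over all tested genes). Estimated depth ran from 27.6 to 55.1 M fragments (M, mega) per library. The lowest member value, 0.35 FPKM for Ccnd2, stood for about 75 fragments. The 2 libraries of a group had a Pearson r across genes of 0.9922 to 0.9955. For 5 of the 10 genes the WT pair on day 0, with depths of 27.6 and 41.3 M, held the largest gap between duplicates on the log2 scale. The same share over all genes was not counted. The widest gap of all, 0.63 for Cdk6, was in the fusion line without Dex on day 6. Mettl3 itself was listed at 37.6 ± 0.38 FPKM (SD, n = 2) in KO and 35.7 ± 0.86 FPKM (SD, n = 2) in WT on day 6, and at 43.4 ± 0.67 against 35.0 ± 2.6 FPKM on day 0. The position of the deletion is not given in the sources used here, so this level does not check the KO label. Between day 0 and day 6 the summed level of 8 pluripotency markers went from between 3346 and 3681 FPKM to between 60.1 and 229.9 FPKM over the 4 lines. The summed level of 7 eye field markers on day 6 was 695 FPKM in WT, 120 FPKM in KO, 198 FPKM in the fusion line without Dex and 439 FPKM with Dex. Single genes differed from each other. In the same order of groups, Lhx2 was at 234, 4.97, 17.3 and 155 FPKM. Pax6 was at 110, 112, 154 and 151 FPKM, and so was not lower in KO. In bulk samples, fewer cells of a type and less RNA per cell cannot be told apart.

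D-type cyclins are made in response to growth signals and bind CDK4 or CDK6. These complexes phosphorylate the retinoblastoma protein and its relatives, which frees E2F transcription factors to switch on S-phase genes, among them the E-type cyclins that activate CDK2. INK4 inhibitors such as Cdkn2c and Cdkn2d bind CDK4 and CDK6 directly, while Cdkn1b acts mainly on cyclin-CDK2 complexes. Mouse embryonic stem cells are known for a short G1 with abundant cyclin E, and the inhibitors are known for cell cycle exit in the retina and brain, where Cdkn1b and Cdkn2d help to keep neurons out of division.

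Cdk4 and Cdk6 encode interchangeable partners of the D cyclins, yet they had the narrowest and the second widest span of group means among the 10 genes, so their upstream sequences are shown side by side. Each run is the 250 bases before the RefSeq transcription start in GRCm38.p6, plus strand, 5′ to 3′, with E-boxes (CACGTG) in capitals. The Cdk4 stretch is chr10:127063285-127063534 and the Cdk6 stretch is chr5:3343643-3343892. The 2 are not equivalent in place. The Cdk4 stretch ends at the first base of the annotated gene, 127063534. The Cdk6 stretch lies inside the annotated gene, which begins at 3341485, and so precedes an internal start.
Cdk4: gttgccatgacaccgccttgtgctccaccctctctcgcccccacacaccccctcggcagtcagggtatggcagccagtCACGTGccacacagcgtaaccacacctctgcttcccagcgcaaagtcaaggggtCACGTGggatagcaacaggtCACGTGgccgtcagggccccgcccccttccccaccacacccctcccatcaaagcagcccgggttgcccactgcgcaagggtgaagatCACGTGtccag
Cdk6: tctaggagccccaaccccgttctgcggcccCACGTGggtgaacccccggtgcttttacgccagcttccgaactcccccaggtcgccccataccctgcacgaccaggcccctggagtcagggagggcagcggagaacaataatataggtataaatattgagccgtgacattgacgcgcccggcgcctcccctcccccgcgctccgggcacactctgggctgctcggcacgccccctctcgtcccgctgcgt
The Cdk4 stretch held 4 E-boxes, whose first bases lay 172, 118, 98 and 11 bases before the start, and the Cdk6 stretch held 1, at 220 bases before it. Of 32851 RefSeq promoters searched from 250 bases before to 50 after the start, 7.1505% held at least 1 CACGTG and 8 promoters (0.0244%) held at least 4. CACGTG reads the same on both strands, so each match was counted once. The same table held promoters for 7 of the 10 genes, at 9 start sites, and Ccnd1, Ccnd2 and Ccne2 had no entry. Outside Cdk4 and Cdk6, CACGTG was found at only 1 of these sites, 34 bases after a Cdkn2c start. The E2F-type letters TTTGGCGC, TTTCCCGC, TTTGCCGC and TTTCGCGC, searched on both strands, were in none of the 9 and in 2.2648% of all promoters. A match is a description of letters, not a binding site.

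**Figure D1:**
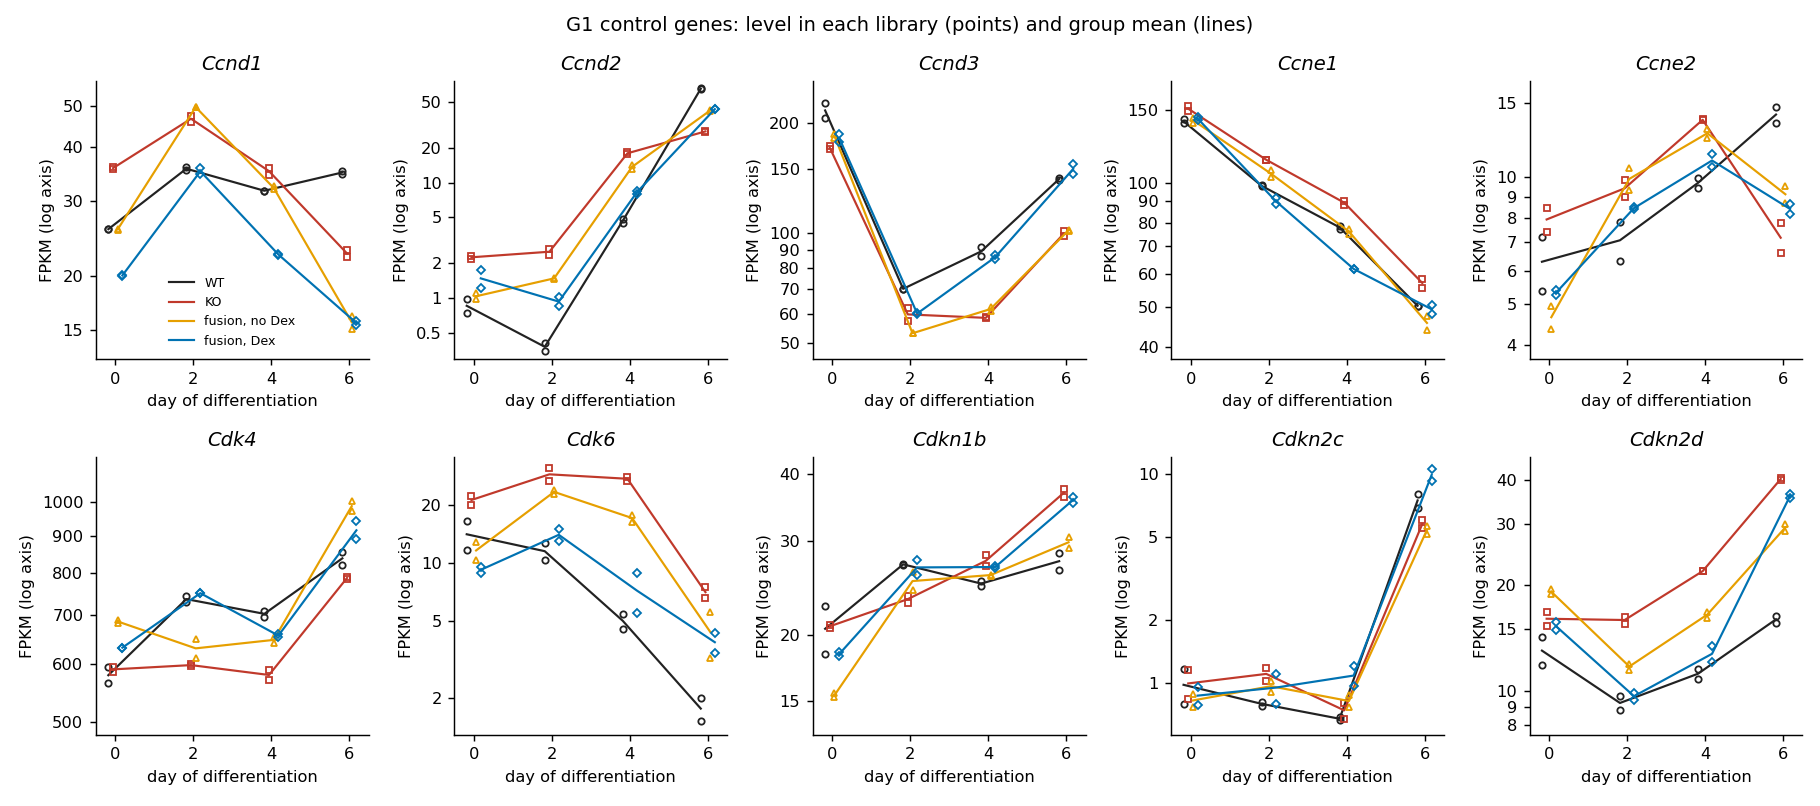
FPKM of the 10 genes (y, log axis, own range in each panel) against day of differentiation (x) in the 4 lines; points are the 2 libraries of a group and lines join group means. Ccnd2 and Cdkn2c were at their highest on day 6 in every line, Ccne1 was at its lowest there, and Cdk6 lay above WT in both KO libraries at each day.

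The D cyclins changed places during differentiation. Ccnd3 (ENSMUSG00000034165; GRCm38 chromosome 17, 47505051 to 47599691), the most abundant of them in every group, fell between day 0 and day 6 in all 4 lines. In WT its duplicates read 227 and 207 FPKM on day 0, 70.3 and 70.3 on day 2, 91.6 and 86.5 on day 4, and 139.9 and 141 on day 6. In KO they read 169.7 and 173 FPKM on day 0, 62.1 and 57.5 on day 2, 58.4 and 58.7 on day 4, and 101.5 and 97.9 on day 6. Both KO libraries were below both WT libraries on each day. The KO differences were -0.34 ± 0.04 on day 0, -0.23 ± 0.04 on day 2, -0.60 ± 0.04 on day 4 and -0.49 ± 0.04 (SE) on day 6, with limma adjusted p of 1.59e-06, 8.34e-05, 2.44e-10 and 2.75e-09. The fusion line without Dex was close to KO on day 6, at 101.4 and 102 FPKM, and with Dex it read 145.6 and 154 FPKM, above both WT libraries. Dex against no Dex was 0.18 ± 0.04 on day 2, 0.47 ± 0.04 on day 4 and 0.55 ± 0.04 on day 6 (limma adjusted p of 0.00175, 3.8e-08 and 2.64e-09). On day 0 the same comparison gave -0.02 ± 0.04 (adjusted p = 0.776). Against WT on day 6 the Dex group differed by 0.09 ± 0.04, which missed the threshold (limma adjusted p = 0.0647) and passed it after rescaling of the libraries by median-of-ratios factors (0.13, adjusted p = 0.0103).

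Ccnd2 (ENSMUSG00000000184; chromosome 6, 127125162 to 127152193), the D cyclin known for neural progenitors, had the widest span of the 10 genes, with group means 170.8-fold apart. In WT it read 0.74 and 0.98 FPKM on day 0, 0.41 and 0.35 on day 2, 4.89 and 4.45 on day 4, and 65.8 and 64.0 on day 6. In KO it read 2.34 and 2.18 FPKM on day 0, 2.69 and 2.36 on day 2, 18.3 and 17.6 on day 4, and 28.0 and 27.5 on day 6. KO libraries were thus above WT on days 0, 2 and 4 and below WT on day 6, with no overlap on any day. The mean ratio of KO to WT was 2.63 on day 0, 6.64 on day 2 and 3.84 on day 4, and that of WT to KO on day 6 was 2.34. On the log2(FPKM + 1) scale the differences were 0.81 ± 0.08, 1.35 ± 0.08, 1.74 ± 0.08 and -1.20 ± 0.08 from day 0 to day 6, with limma adjusted p of 9.5e-08, 3.32e-11, 5.93e-13 and 8.69e-11. On day 4 the fusion line read 13.2 and 14.2 FPKM without Dex and 8.49 and 7.96 FPKM with Dex, in between KO and WT. Dex against no Dex was -0.67 ± 0.08 there (adjusted p = 1.58e-06). On day 6 the same groups read 41.6 and 42.6 FPKM, and 43.2 and 43.3 FPKM, all below WT and above KO, and Dex against no Dex was 0.04 ± 0.08 (adjusted p = 0.749).

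Ccnd1 (ENSMUSG00000070348; chromosome 7, 144929931 to 144939925), known as the leading D cyclin of retinal progenitors, read 25.7 and 25.8 FPKM on day 0, 35.4 and 35.9 on day 2, 31.7 and 31.6 on day 4, and 34.6 and 35.3 on day 6 in WT. In KO it read 35.5 and 35.9 FPKM on day 0, 47.3 and 45.9 on day 2, 34.5 and 35.8 on day 4, and 22.2 and 23.0 on day 6. KO libraries were above WT on the first 3 days and below on day 6. The differences were 0.46 ± 0.03 on day 0, 0.38 ± 0.03 on day 2, 0.15 ± 0.03 on day 4 and -0.61 ± 0.03 on day 6 (limma adjusted p of 2.48e-10, 1.24e-09, 0.000183 and 4.84e-13). The day 4 difference lost its call under median-of-ratios rescaling (0.04, adjusted p = 0.2). The fusion line on day 6 was lower than KO, at 15.1 and 16.2 FPKM without Dex and 15.7 and 15.4 FPKM with Dex, and these pairs overlapped. Ccnd1 was lower with Dex on day 4, at 22.5 and 22.5 FPKM against 32.4 and 31.9 FPKM, a difference of -0.50 ± 0.03 (adjusted p = 1.03e-10). Between day 0 and day 6, Ccnd1 rose in WT by 0.43 ± 0.03 and fell by 0.64 in KO, by 0.69 in the fusion line without Dex and by 0.35 with Dex.

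**Figure D2:**
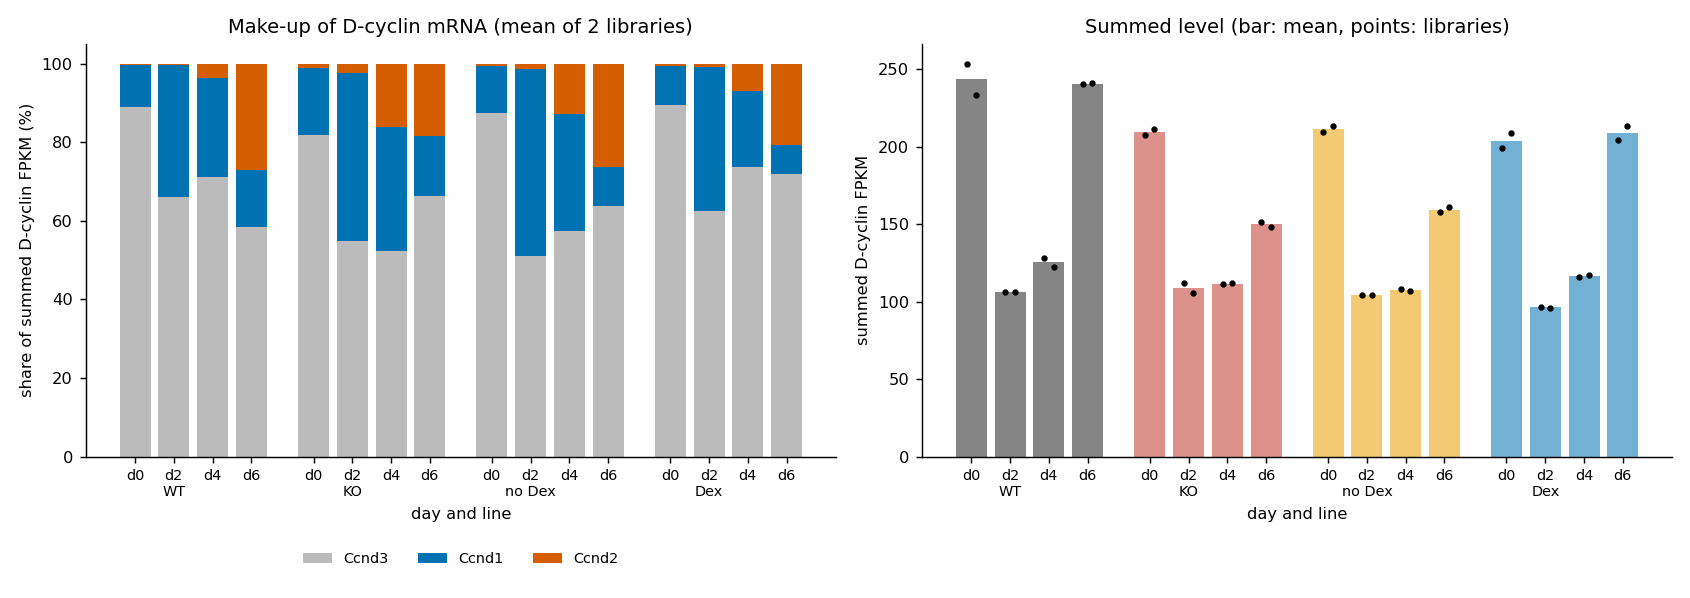
Left, share of the summed FPKM of Ccnd1, Ccnd2 and Ccnd3 held by each (percent, mean of 2 libraries) by line and day; right, the summed FPKM, bars for means and points for libraries. The day 6 sum was 240.5 FPKM for WT and 150.01 FPKM for KO, with Ccnd2 at 27.0% and 18.5% of it.

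As a share of D-cyclin FPKM, described without a test, Ccnd3 made up 89.1% in WT on day 0 and 58.5% on day 6, while Ccnd2 went from 0.36% to 27.0%. In KO the Ccnd3 share was 81.9% on day 0, 52.4% on day 4 and 66.4% on day 6, and the Ccnd2 share was 16.1% on day 4 against 3.7% in WT. Ccnd1 had its highest share on day 2 in each line, at 33.5% for WT, 42.8% for KO, and 47.6% and 36.5% for the fusion line without and with Dex. The summed level on day 6 was 159 FPKM without Dex and 209 FPKM with Dex, and Ccnd3 held 63.8% and 71.8% of these sums.

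The E cyclins took different courses. Ccne1 (ENSMUSG00000002068; chromosome 7, 38097984 to 38107534), the cyclin E that is abundant in stem cells, was lower on each later day: in WT it read 142 and 139 FPKM on day 0, 97.9 and 98.5 on day 2, 77.1 and 78.7 on day 4, and 50.4 and 50.2 on day 6. Between day 0 and day 6 it fell by 1.47 in WT, 1.39 in KO, 1.61 in the fusion line without Dex and 1.52 with Dex on the log2 scale, each with an SE of 0.03. In KO the duplicates were 148.8 and 153 FPKM on day 0 and 58.5 and 55.7 FPKM on day 6, above both WT libraries on these days and on days 2 and 4. The excess was small, between 0.10 ± 0.03 (limma adjusted p = 0.0204) on day 0 and 0.21 ± 0.03 (adjusted p = 3.23e-05) on day 2. The day 0 call was lost without the second WT library (adjusted p = 0.118), without the second KO library (adjusted p = 0.146) and in a fit of the compared groups alone (adjusted p = 0.113). Ccne1 was lower with Dex on day 4, at 61.7 and 61.8 FPKM against 77.2 and 75.0 FPKM (-0.30 ± 0.03, adjusted p = 1.09e-06). On day 6 the Dex difference was 0.11 ± 0.03 (adjusted p = 0.0149), and it lost its call when 1 library was left out (0.05 without the second library grown without Dex, adjusted p = 0.281; 0.07 without the second Dex library, adjusted p = 0.183).

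Ccne2 (ENSMUSG00000028212; chromosome 4, 11191351 to 11204779), the second cyclin E, read 7.22 and 5.38 FPKM on day 0, 7.84 and 6.33 on day 2, 9.41 and 9.99 on day 4, and 14.7 and 13.47 on day 6 in WT. In KO it read 8.46 and 7.42 FPKM on day 0, 9.83 and 9.0 on day 2, 13.7 and 13.8 on day 4, and 6.60 and 7.77 on day 6. As with Ccnd2, KO was above WT on the first 3 days and below it on day 6. On day 2 the KO difference was 0.37 ± 0.11 (limma adjusted p = 0.00554), a call lost in a fit of the compared groups alone (adjusted p = 0.0753). The day 2 value was 0.24 without the second WT library and 0.31 without the first KO library. On day 4 the KO difference was 0.46 ± 0.11 (limma adjusted p = 0.000955) and on day 6 it was -0.89 ± 0.11 (adjusted p = 4.56e-07). On day 0 it was 0.30 ± 0.11 (adjusted p = 0.0248) and the call was lost without the second WT library (0.12, adjusted p = 0.418), without the first KO library (0.22, adjusted p = 0.197) and in a fit of the compared groups alone (adjusted p = 0.269). The fusion line on day 6 read 9.55 and 8.68 FPKM without Dex and 8.17 and 8.65 FPKM with Dex, all below WT, and Dex against no Dex was not called on any day (adjusted p between 0.128 and 0.481). Ccne2 made up 4.3% of E-cyclin FPKM in WT on day 0 and 21.9% on day 6, against 5.0% and 11.2% in KO.

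The kinases took opposite courses. Cdk4 (ENSMUSG00000006728; chromosome 10, 127063534 to 127067920) was the most abundant of the 10 genes in every library and the steadiest, with group means 1.71-fold apart at most. In WT it read 594 and 565 FPKM on day 0, 745 and 729 on day 2, 697 and 709.5 on day 4, and 856 and 820.0 on day 6. It rose between day 0 and day 6 by 0.53 ± 0.03 in WT and 0.42 ± 0.03 in KO, and by 0.53 ± 0.03 in the fusion line without Dex and with Dex alike. In KO it was lower than WT on day 2, at 599.5 and 597 FPKM (-0.30 ± 0.03, limma adjusted p = 9.66e-08), and on day 4, at 570.1 and 589 FPKM (-0.28 ± 0.03, adjusted p = 2.21e-07). With Dex on day 2 it read 750.8 and 750.8 FPKM, against 611 and 650.3 FPKM without Dex (0.25 ± 0.03, adjusted p = 2.44e-06). The day 6 differences, -0.09 ± 0.03 for KO against WT and -0.11 ± 0.03 for Dex against no Dex, lost their calls when 1 library was left out.

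Cdk6 (ENSMUSG00000040274; chromosome 5, 3341485 to 3531008) fell between day 0 and day 6 in all 4 lines and was higher in KO throughout. In WT it read 11.6 and 16.5 FPKM on day 0, 10.4 and 12.6 on day 2, 5.46 and 4.58 on day 4, and 2.01 and 1.52 on day 6. In KO it read 22.3 and 20.01 FPKM on day 0, 30.8 and 26.6 on day 2, 28.0 and 26.5 on day 4, and 6.61 and 7.51 on day 6. Every KO library exceeded both WT libraries of its day, and the mean ratio of KO to WT was 2.50 on day 2, 5.43 on day 4 and 4.00 on day 6. The differences were 1.25 ± 0.20, 2.23 ± 0.20 and 1.55 ± 0.20 on these days, with limma adjusted p of 2.7e-05, 1.2e-08 and 1.48e-06. The day 0 difference of 0.57 ± 0.20 (adjusted p = 0.0252) lost its call without the first WT library (0.34, adjusted p = 0.284), without the first KO library (0.50, adjusted p = 0.129), without the low-value filter (adjusted p = 0.0504) and in a fit of the compared groups alone (adjusted p = 0.126). Cdk6 also had the widest gaps between duplicates of the 10 genes, which its larger SE reflects.

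In the fusion line Cdk6 read 17.8 and 16.3 FPKM on day 4 without Dex and 5.52 and 8.88 FPKM with Dex, a difference of -1.17 ± 0.20 (limma adjusted p = 0.000122). The Dex libraries were near the WT libraries of that day, and Dex against WT was 0.42 ± 0.20 (adjusted p = 0.104), or 0.72 without the first Dex library (adjusted p = 0.0163). On day 2 the fusion line read 23.9 and 22.7 FPKM without Dex and 12.9 and 15.04 FPKM with Dex (-0.70 ± 0.20, adjusted p = 0.00846). The day 2 call was lost without the first Dex library (-0.60, adjusted p = 0.0725). On day 6 it read 5.57 and 3.24 FPKM without Dex and 3.42 and 4.36 FPKM with Dex, so the pairs overlapped, and both groups were above WT and below KO. The day 6 Dex difference was -0.12 ± 0.20 (adjusted p = 0.701).

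Among the inhibitors, Cdkn2d (ENSMUSG00000096472; chromosome 9, 21288410 to 21291407), an INK4 inhibitor of CDK4 and CDK6, stood out in KO. In WT it read 11.8 and 14.2 FPKM on day 0, 9.65 and 8.81 on day 2, 10.8 and 11.5 on day 4, and 16.4 and 15.6 on day 6. In KO it read 15.3 and 16.8 FPKM on day 0, 16.3 and 15.6 on day 2, 21.96 and 21.94 on day 4, and 39.95 and 40.5 on day 6. KO was above WT on each day, with no overlap, and the gap grew with time. The differences were 0.29 ± 0.07, 0.73 ± 0.07, 0.91 ± 0.07 and 1.28 ± 0.07 from day 0 to day 6 (limma adjusted p of 0.00132, 1.52e-08, 4.49e-10 and 1.78e-12). The day 0 call was lost without the first WT library (0.16, adjusted p = 0.053) and in a fit of the compared groups alone (adjusted p = 0.165). Cdkn2d was lower in the Dex group than without Dex on the first 3 days and higher on the last. The day 0 difference was -0.31 ± 0.07 (adjusted p = 0.000798), and exposure to Dex on that day is not established by the protocol. On day 4 it read 16.8 and 16.2 FPKM without Dex and 12.1 and 13.4 with Dex (-0.35 ± 0.07, adjusted p = 0.000288), and on day 6 it read 29.9 and 28.6 without Dex and 36.5 and 35.4 with Dex (0.29 ± 0.07, adjusted p = 0.00143). The day 2 difference of -0.26 ± 0.07 (adjusted p = 0.0036) lost its call under rescaling (-0.15, adjusted p = 0.0705). The interaction of Dex with day, day 6 against day 0, was 0.60 ± 0.09 (adjusted p = 2.79e-05). The Dex group exceeded WT on day 6 by 1.12 ± 0.07 (adjusted p = 2.2e-11).

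Cdkn2c (ENSMUSG00000028551; chromosome 4, 109660876 to 109667189), the other INK4 inhibitor, was low until day 4 in every line and rose by day 6. Its 12 group means from day 0 to day 4 lay between 0.67 and 1.10 FPKM, and each overlapped its neighbour in rank. On day 6 it read 8.06 and 6.92 FPKM in WT, 5.51 and 6.03 in KO, 5.64 and 5.17 in the fusion line without Dex, and 10.6 and 9.30 with Dex. The Dex libraries were the highest of the 8 and did not overlap any other group. The rise from day 0 to day 6 was 2.11 ± 0.11 for WT, 1.77 ± 0.11 for KO, 1.82 ± 0.11 for no Dex and 2.55 ± 0.11 for Dex. Dex against no Dex on day 6 was 0.77 ± 0.11 (limma adjusted p = 7.63e-06). KO against WT on day 6 was -0.32 ± 0.11 (adjusted p = 0.0111) and Dex against WT was 0.37 ± 0.11 (adjusted p = 0.00545), and a pseudocount of 0.1 ended both calls (adjusted p = 0.085 and 0.0633). So did a fit of the compared groups alone (adjusted p = 0.0545 and 0.0574). The first was also lost without the first WT library (adjusted p = 0.134) or the first KO library (0.0877), and the second without the second WT library (0.0833) or the first Dex library (0.0721). Of the summed FPKM of Cdkn2c and Cdkn2d on day 6, Cdkn2c held 31.9% in WT, 12.5% in KO, 15.6% in the fusion line without Dex and 21.6% in the same line with it. Their sum was 23.5 FPKM for WT, 46.0 for KO, 34.7 for no Dex and 45.9 for Dex.

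Cdkn1b (ENSMUSG00000003031; chromosome 6, 134920401 to 134925513) encodes Kip1, which holds cyclin-CDK2 complexes inactive. Its WT duplicates read 18.4 and 22.6 FPKM on day 0, 27.2 and 27.0 on day 2, 25.2 and 24.7 on day 4, and 26.5 and 28.5 on day 6. In KO it read 36.3 and 37.5 FPKM on day 6, in the fusion line 30.5 and 29.1 without Dex, and 36.2 and 35.4 with Dex, all above both WT libraries. KO against WT was 0.41 ± 0.06 on day 6 (limma adjusted p = 5.96e-06) and Dex against no Dex was 0.26 ± 0.06 (adjusted p = 0.00188). On earlier days KO against WT was 0.02 ± 0.06, -0.21 ± 0.06 and 0.14 ± 0.06, of which the day 2 value passed the test (adjusted p = 0.00604). Cdkn1b rose between day 0 and day 6 in all 4 lines, by 0.41 ± 0.06 in WT and by 0.80 ± 0.06 in KO.

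**Figure D3:**
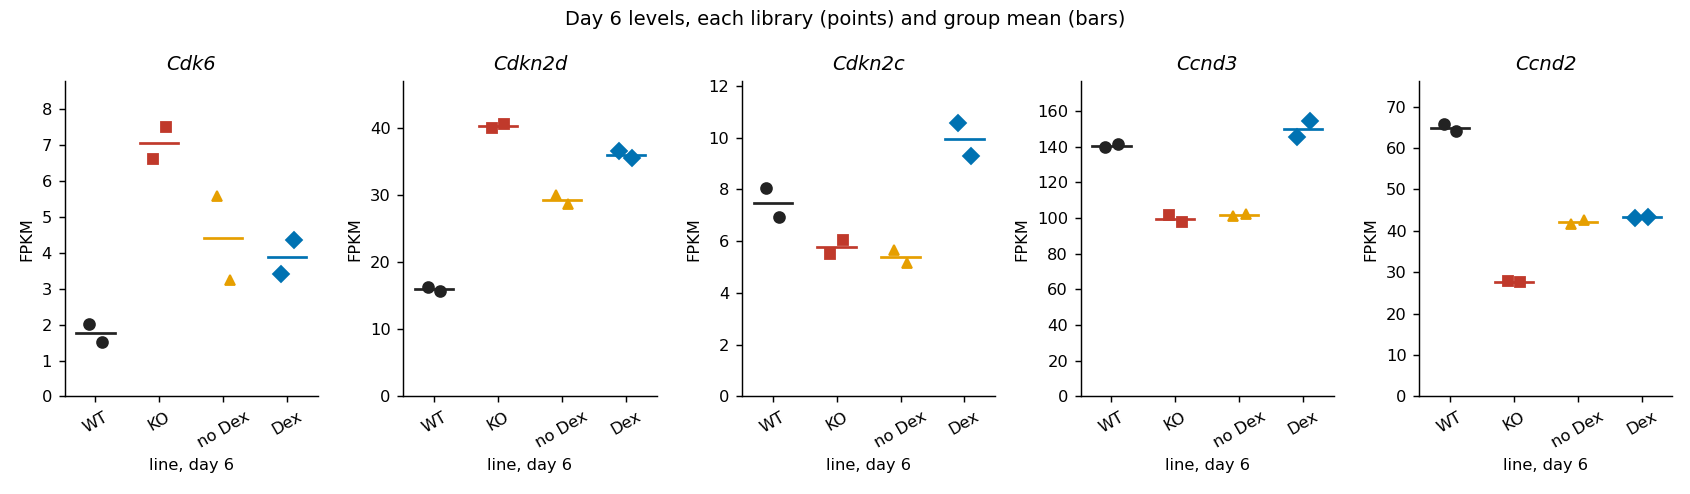
FPKM on day 6 (y, from 0) of 5 of the genes in the 4 lines, with points for the 2 libraries and a bar for their mean. Cdk6 and Cdkn2d were lowest in WT, Ccnd2 was highest in WT at a mean of 64.9 FPKM, and Cdkn2c and Ccnd3 were higher with Dex than without.

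Markers of other cell types differed between the same day 6 groups. The summed level of 8 neuron markers on day 6 was 50.3 ± 1.5 FPKM in WT, 335.9 ± 2.1 in KO, 276 ± 1.8 in the fusion line without Dex and 164 ± 0.23 with Dex (SD, n = 2). Between 6 and 8 of the 8 markers reached 1 FPKM in these groups, and none of them was at 0. Most of the sum was Tubb3, at 29.2, 266, 212 and 134 FPKM, while Dcx, a marker of young neurons, was at 0.16, 1.49, 1.34 and 0.34 FPKM. Elavl3, at 1.3, 8.2, 5.3 and 2.4 FPKM, had the same order of groups. Stmn2, at 11.3, 23.3, 19.5 and 6.9 FPKM, did not, since it was lower with Dex than in WT. The list is not limited to neurons in these cultures, since its sum in the day 0 stem cells was between 307 and 342 FPKM. On day 6 Cdkn2d, Cdkn1b and the neuron sum were all higher in KO than in WT. They were all lower in the fusion line without Dex than in KO. Within that line, both genes were lower without Dex than with it, while the neuron sum was higher without Dex. The summed level of 5 neural crest markers was 3.1 FPKM for WT, 46.8 for KO, 52.4 for no Dex and 20.3 for Dex on day 6. With groups in that order, 6 neural progenitor markers summed to 402, 698, 664 and 638 FPKM. This sum was thus lowest for WT, whereas Ccnd2 was highest there. Sums that were highest for WT were those of 6 extraembryonic endoderm markers (66.5, 11.4, 8.6 and 11.2 FPKM) and 5 mesendoderm markers (5.0, 1.4, 1.1 and 1.9 FPKM). The extraembryonic endoderm sums already differed on day 0, with 21.1, 4.1, 6.6 and 7.3 FPKM. The part of these cells in the differences of the 10 genes was not tested.

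Counts over the 10 genes are given beside the percentage of all 16276 tested genes called in the same comparison and direction. KO differed from WT on day 0 in 7 of the 10 (48.2% of all genes), 6 higher (18.4%) and 1 lower (29.8%). On day 2 it was 9 of the 10 (58.9% of all genes), 6 higher (37.5%) and 3 lower (21.3%). On day 4 it was 8 of the 10 (60.5% of all genes), 6 higher (36.5%) and 2 lower (24%), and on day 6 it was 10 of the 10 (65.1% of all genes), 4 higher (30.9%) and 6 lower (34.2%). The calls were thus frequent across the whole table, so sizes are given as well. On day 6 the median absolute difference was 0.55 over the 10 genes and 0.32 over all tested genes. The 10 genes were chosen with earlier results known and not matched for level, so the medians here are descriptions only. The median signed difference of the 10 genes was 0.19, 0.30, 0.17 and -0.21 from day 0 to day 6, against -0.04, 0.09, 0.06 and -0.03 over all genes.

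**Figure D4:**
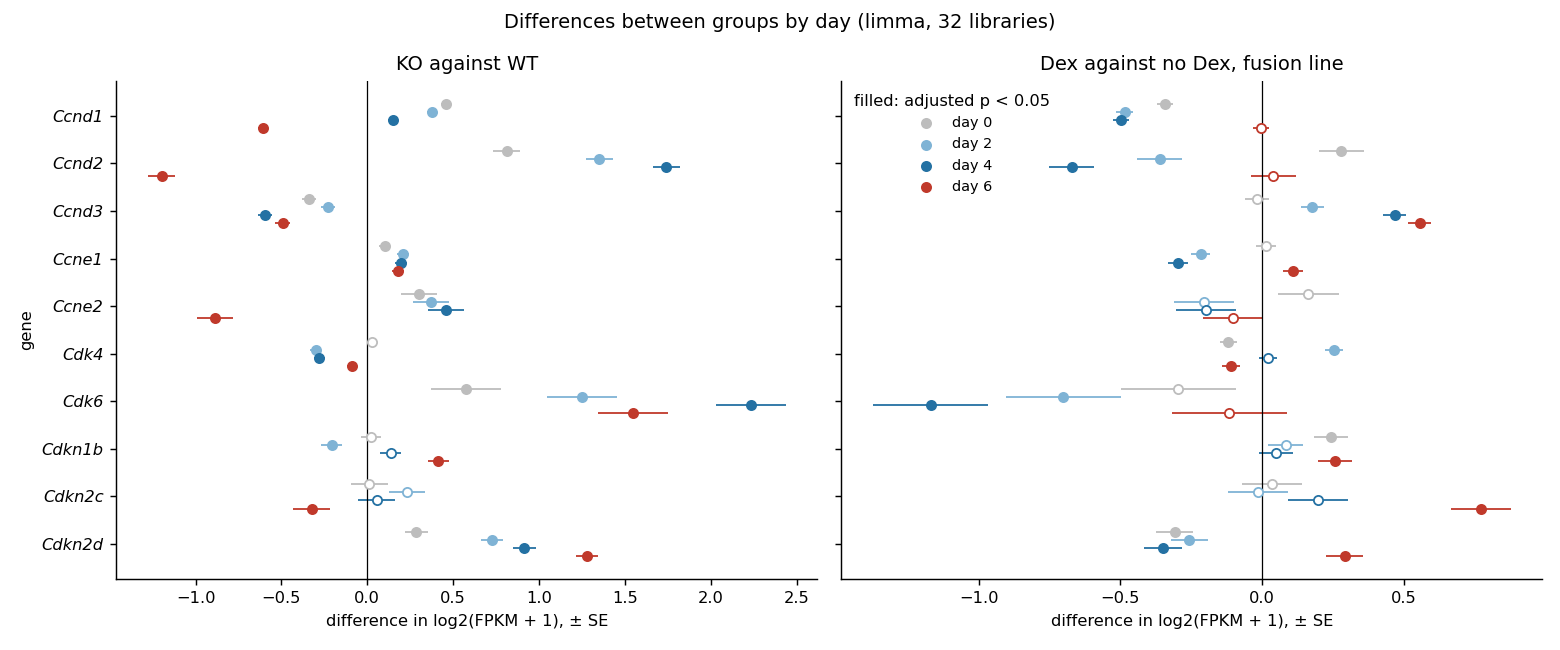
Difference in log2(FPKM + 1) ± SE (x) for each gene (y) on the 4 days, left for KO against WT and right for Dex against no Dex in the fusion line; filled points have an adjusted p under 0.05. In KO, Ccnd1, Ccnd2 and Ccne2 lay right of 0 on the first 3 days and left of it on day 6, while Cdk6 and Cdkn2d stayed right of 0.

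The KO effect on day 6 differed from that on day 0 by the interaction test in 8 of the 10 genes (56.9% of all genes), 3 more positive (31.1%) and 5 more negative (25.8%). Ccnd1, Ccnd2 and Ccne2 had the largest negative interactions, at -1.06 ± 0.04, -2.01 ± 0.11 and -1.19 ± 0.15 (limma adjusted p of 5.75e-14, 1.63e-11 and 1.48e-06). Cdkn2d and Cdk6 had the largest positive ones, at 0.99 ± 0.09 (adjusted p = 2.73e-08) and 0.97 ± 0.29 (adjusted p = 0.007). For Ccne1 the interaction was 0.08 ± 0.05 (adjusted p = 0.175) and for Cdkn2c it was -0.34 ± 0.15 (adjusted p = 0.0618).

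Within the fusion line, Dex against no Dex called on day 0 5 of the 10 (43.4% of all genes), 2 higher (27.3%) and 3 lower (16.1%). On day 2 it called 7 of the 10 (44.3% of all genes), 2 higher (12.7%) and 5 lower (31.5%). On day 4 it called 6 of the 10 (40.2% of all genes), 1 higher (18.3%) and 5 lower (21.9%), and on day 6 it called 6 of the 10 (42.7% of all genes), 5 higher (23.8%) and 1 lower (19%). On day 4 Ccnd1, Ccnd2, Ccne1, Cdk6 and Cdkn2d were lower with Dex and Ccnd3 was higher. These 6 are also called in KO against WT of that day, where each had the opposite sign, Ccnd1 only before rescaling. Of all genes, 60.5% were called in that KO comparison and 40.2% in the Dex comparison. The share of all genes called in both with opposite signs was not counted, so the overlap is not read as particular to these genes. The KO and WT libraries do not enter the Dex difference itself, but they enter the pooled spread behind its SE and adjusted p. On day 6 the 5 genes higher with Dex were Ccnd3, Ccne1, Cdkn1b, Cdkn2c and Cdkn2d, and the gene that was lower was Cdk4. Of these, Ccne1, Cdkn1b and Cdkn2d were also higher in KO than in WT, whereas Ccnd3 and Cdkn2c were lower in KO. The Dex calls of Ccne1 and Cdk4 on day 6 were lost in a limma fit of the compared groups alone (adjusted p = 0.216 and 0.124). The KO call of Cdkn2c was lost in such a fit too (adjusted p = 0.0545). The median difference of the 10 genes was -0.25 on day 4 and 0.07 on day 6, against -0.01 and 0.01 over all genes. The interaction with day called 4 of the 10 genes (48.7% of all genes), all 4 more positive on day 6 (22.7% of all genes, with 25.9% more negative): Ccnd1 at 0.34 ± 0.04, Ccnd3 at 0.57 ± 0.06, Cdkn2c at 0.74 ± 0.15 and Cdkn2d at 0.60 ± 0.09.

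The fusion line without Dex differed from KO on day 0 in 9 of the 10 (49.1% of all genes), 3 higher (19.3%) and 6 lower (29.8%), and on day 2 in 5 of the 10 (37% of all genes), 1 higher (14.8%) and 4 lower (22.2%). On day 4 it differed in 6 of the 10 (26.7% of all genes), 1 higher (9.66%) and 5 lower (17%), and on day 6 in 8 of the 10 (49% of all genes), 3 higher (21.1%) and 5 lower (27.9%). On day 6 Ccnd2 was 0.58 ± 0.08 higher and Cdkn2d 0.45 lower in log2(FPKM + 1), and both were between KO and WT. With Dex the line differed from WT on day 0 in 6 of the 10 (49.8% of all genes), 3 higher (19%) and 3 lower (30.8%), and on day 2 in 3 of the 10 (29.4% of all genes), 1 higher (12.2%) and 2 lower (17.2%). On day 4 it differed in 6 of the 10 (44.7% of all genes), 3 higher (25.7%) and 3 lower (19.1%), and on day 6 in 8 of the 10 (61.4% of all genes), 5 higher (29.2%) and 3 lower (32.2%). On day 6 the values of Dex against WT, beside those of KO against WT that share the WT libraries, were -1.12 and -0.61 for Ccnd1, -0.57 and -1.20 for Ccnd2, and -0.68 and -0.89 for Ccne2. For Cdk6 they were 0.82 and 1.55, for Cdkn2d 1.12 and 1.28, and for Ccnd3 0.09 and -0.49.

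Between day 0 and day 6, WT changed in 10 of the 10 (78.1% of all genes), 7 higher (43.6%) and 3 lower (34.5%), and KO in 9 of the 10 (80.4% of all genes), 5 higher (45%) and 4 lower (35.4%). The fusion line changed without Dex in 10 of the 10 (81.9% of all genes), 6 higher (48%) and 4 lower (33.9%), and with Dex in 10 of the 10 (80.4% of all genes), 6 higher (46.4%) and 4 lower (34%). Ccnd2 rose by 5.15 ± 0.08 in WT and 3.14 ± 0.08 in KO, and in the fusion line by 4.40 ± 0.08 (no Dex) and 4.16 ± 0.08 (Dex). Cdk6 fell by 2.43 in WT and by 1.46 in KO, and in the fusion line by 1.25 (no Dex) and 1.07 (Dex), each with an SE of 0.20. Ccne2 rose by 1.06 ± 0.11 in WT and changed by -0.13 ± 0.11 in KO (limma adjusted p = 0.273), a value that passed the test after rescaling (-0.27, adjusted p = 0.0256). Rescaling moved the median of all genes in these 4 comparisons by 0.116 (WT), 0.103 (KO), 0.191 (no Dex) and 0.145 (Dex). It also ended the call of the WT rise of Cdkn2d (0.28 ± 0.07, and 0.12 rescaled, adjusted p = 0.0948).

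Ranked by level over the 16 groups, the genes differed in how well neighbours could be told apart. For Ccnd2, 3 of the 15 neighbouring pairs in rank overlapped, among the low groups of days 0 and 2, and the top 4 ranks were the 4 lines on day 6, in the order WT, with Dex, without Dex and KO. For Cdk6 the order ran from WT on day 6 (1.77 FPKM) to KO on day 4 (27.2 FPKM) and KO on day 2 (28.7 FPKM), and 8 neighbouring pairs overlapped, the last 2 groups among them. Ccnd3 was highest in the 4 day 0 groups, with 5 overlapping neighbours, and lowest in the fusion line without Dex on day 2 (53.1 FPKM). For Ccne1, with 5 overlaps, the 4 lowest groups were those of day 6 and the 4 highest those of day 0. Ccnd1 ran from 15.6 FPKM in the day 6 fusion groups, which overlapped, to 49.6 FPKM in the fusion line without Dex on day 2, with 7 overlaps. For Ccne2, with 10 overlaps, WT on day 6 (14.1 FPKM) and KO on day 4 (13.7 FPKM) were highest and overlapped. For Cdk4, with 4 overlaps, the 4 highest groups were those of day 6. For Cdkn1b, with 8 overlaps, KO on day 6 (36.9 FPKM) and the Dex group on day 6 (35.8 FPKM) were highest and did not overlap. For Cdkn2d, with 7 overlaps, the order at the top was KO (40.2 FPKM), with Dex (36.0 FPKM) and without Dex (29.3 FPKM), all on day 6, ahead of KO on day 4 (22.0 FPKM). For Cdkn2c, 12 neighbouring pairs overlapped.

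Of the 45 pairs among the 10 genes, the group means of Ccnd2 and Ccne1 had a Pearson r of -0.86 over the 16 groups, those of Ccne1 and Cdkn1b -0.84, those of Cdk4 and Cdk6 -0.79, those of Cdk4 and Cdkn2c 0.81 and those of Ccnd2 and Cdkn2c 0.80. These are descriptions of 16 groups that share the days of differentiation. Among 11574 other genes, the 3 with the course most like that of Ccnd2 were Bbs4 (r = 0.99), Smad3 (0.98) and Slc31a1 (0.98). For Cdk6 they were Polr3g (0.95), Polr1b (0.95) and Fbxo8 (0.95), and for Cdkn2c they were Filip1 (0.99), Col11a1 (0.99) and Slc25a21 (0.98).

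Of 26 other genes of G1/S control, 7 were higher (30.9% of all genes) and 13 lower (34.2%) in KO than in WT on day 6, with a median of -0.06 against -0.03 over all genes. On days 0, 2 and 4 the counts were 5, 10 and 10 higher (18.4%, 37.5% and 36.5% of all genes) and 11, 8 and 8 lower (29.8%, 21.3% and 24%). The largest rise among them was that of Cdkn1a, the p53-responsive inhibitor of the Cdkn1b family, from 33.2 FPKM in WT to 56.7 FPKM in KO (0.76 ± 0.06, limma adjusted p = 1.31e-09). E2f1 followed at 0.35 ± 0.04. The largest fall was that of Cdkn1c, the third inhibitor of that family, from 111 FPKM in WT to 26.6 FPKM in KO (-2.02 ± 0.11, adjusted p = 3.63e-12). Cdkn2a went from 5.10 to 1.31 FPKM (-1.42 ± 0.14) and Cdkn2b, its neighbour on the chromosome, from 0.51 to 0.16 FPKM (-0.39 ± 0.12). Reads of the last 2 may not be fully separable. Among the inhibitors of the CDKs on day 6, Cdkn1a, Cdkn1b and Cdkn2d were thus higher in KO, and Cdkn1c, Cdkn2a, Cdkn2b and Cdkn2c were lower. Of the falls, that of Cdkn2c was not called under every alternative, and Cdkn2b was below 1 FPKM in both groups. Of the retinoblastoma family, Rb1 (0.13 ± 0.21) and Rbl1 (0.09 ± 0.07) did not pass the test and Rbl2 was lower (-0.35 ± 0.11, adjusted p = 0.00845).

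With Dex on day 6, 8 of the 26 were higher (23.8% of all genes) and 8 lower (19%) than without it. Cdkn1a was again the largest rise, from 23.8 to 44.1 FPKM (0.86 ± 0.06, limma adjusted p = 9.91e-10), followed by E2f4 (0.41 ± 0.02). The largest falls were those of Rb1 (-0.58 ± 0.21, adjusted p = 0.0335) and E2f7 (-0.46 ± 0.12, adjusted p = 0.00405), and Rbl1 was lower too (-0.37 ± 0.07). Cdkn1c, at 27.0 FPKM with Dex and 28.2 FPKM without, gave -0.06 ± 0.11 (adjusted p = 0.7). Cdkn2a, Cdkn2b and Rbl2 were not called (0.20 ± 0.14, 0.03 ± 0.12 and 0.13 ± 0.11).

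Of 19 genes of the later G2/M phases, 16 were lower in KO than in WT on day 6 (34.2% of all genes) and the other 3 were not called, with a median of -0.33 against -0.03 over all genes. On day 2, 15 were lower (21.3% of all genes) and the other 4 were not called, with a median of -0.37 against 0.09. Days 0 and 4 were mixed, each with 4 higher (18.4% and 36.5% of all genes) and 9 lower (29.8% and 24%), and with medians of -0.07 and -0.07 against -0.04 and 0.06 over all genes. Mki67, a marker of dividing cells, was at 35.8 FPKM in KO and 45.2 FPKM in WT on day 6 (-0.33 ± 0.03, limma adjusted p = 1.66e-09). With Dex on day 6, 6 of the 19 were higher (23.8% of all genes) and 4 lower (19%) than without. On days 0, 2 and 4 the counts were 13, 9 and 12 higher (27.3%, 12.7% and 18.3% of all genes) and 2, 3 and 1 lower (16.1%, 31.5% and 21.9%). On day 6 Mki67 was at 32.5 FPKM against 36.7 FPKM (-0.17 ± 0.03, adjusted p = 3.09e-05).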

How the data were processed

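The authors deposited FPKM per gene for 32 libraries, rounded to 2 decimals, and the submitters' processing notes name STAR, Cuffdiff and mm10 without versions or roles. Polyadenylated RNA was sequenced as paired ends, per the labels' protocols. FPKM are not counts, so log2(FPKM + 1) was tested with limma 3.58.1 in R 4.3.3 (lmFit, contrasts.fit, eBayes with trend), two-sided. Group means of all 16 groups were fitted together, with 16 residual degrees of freedom. A gene was tested when at least 2 libraries reached 1 FPKM (16276 genes). Named genes were the 10 members, Mettl3, inhibitors, retinoblastoma family genes and the 2 largest rises and falls of a list of 26 G1/S genes, Mki67, and the 3 genes most like each of the 3 most variable members. The members and lists were chosen with earlier results of these data known.

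Positions are GENCODE M21, and 99.522% of rows matched by gene ID. Depth was estimated from the steps of low values of 7827 single-transcript genes, where 88.4% to 92.8% lay within 0.2 of a whole fragment (40% by chance). 3 fragments on 2000 bases equal 0.032 to 0.064 FPKM, which covers counting error only. Data were simulated for KO against WT on day 6 (16276 genes, 200 changed, all upward, with independent normal noise). On the log2 scale, 77.6% of changes of 0.5 and 91% of changes of 1 were recovered. Of the calls, 4.43% were false. In the measured data 65.1% of genes were called, and the simulation does not cover scaling shifts between libraries or technical duplicates. Alternatives were a pseudocount of 0.1, no filter, a mean of at least 5 FPKM, each library left out, a block on the replicate number, median-of-ratios rescaling and fits limited to the groups compared. Protein sequences were not used here.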

Additional observations from a re-analysis of the deposited data

Results flagged for a closer look

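The KO effect on day 6 differed from the KO effect on day 0 by the interaction test of limma in 8 of the 10 genes (56.9% of all genes), on the log2(FPKM + 1) scale. It was more negative on day 6 for Ccnd1 (-1.06, adjusted p = 5.75e-14), Ccnd2 (-2.01, adjusted p = 1.63e-11), Ccnd3 (-0.16, adjusted p = 0.0288), Ccne2 (-1.19, adjusted p = 1.48e-06) and Cdk4 (-0.12, adjusted p = 0.0313). It was more positive on day 6 for Cdk6 (0.97, adjusted p = 0.007), Cdkn1b (0.39, adjusted p = 0.000632) and Cdkn2d (0.99, adjusted p = 2.73e-08). The calls for Ccnd3 and Cdk4 were lost without the low-value filter (adjusted p = 0.0506 and 0.0574) and without the second WT library of day 0 (-0.09, adjusted p = 0.191, and -0.08, adjusted p = 0.152).

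The difference of Dex against no Dex was more positive on day 6 than on day 0 by the same test in 4 of the 10 genes (22.7% of all genes in that direction), Ccnd1 (0.34, adjusted p = 1.31e-06), Ccnd3 (0.57, adjusted p = 1.56e-07), Cdkn2c (0.74, adjusted p = 0.000422) and Cdkn2d (0.60, adjusted p = 2.79e-05). Groups of 2 libraries allow no test for an outlying library.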

How the results depend on the processing

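Of 160 called differences of the 10 genes, 75 were at least 0.5 in size on the log2 scale. All 75 kept their direction under every alternative run, and 5 of them, all of Cdk6, lost their call in some setting. Fits of the compared groups alone, with fewer residual degrees of freedom, called 3 genes in place of 7 for KO against WT on day 0, 2 in place of 5 for no Dex against KO on day 2, and 1 in place of 6 for Dex against WT on day 0. With 1 library left out, where the lone library is assumed to vary like the other groups, the count was 3 to 5 for no Dex against KO on day 2 (3 without either KO library or the second library without Dex) and 3 to 7 for Dex against WT on day 4 (3 without the second Dex library). The replicate number as a block changed no count of members and no member's call. Duplicate differences of different groups correlated between -0.0884 and 0.125 over 120 pairs of groups, so the numbers were not taken to pair libraries.

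Median-of-ratios rescaling reversed 1 called difference, Ccne1 in no Dex against KO on day 0 (0.041). It also reversed uncalled ones: Dex against no Dex for Ccne1 on day 0 (-0.070) and Cdkn2c on days 0 and 2 (-0.0038 and 0.042), and Dex against WT for Ccnd1 and Cdkn1b on day 2 (0.0103 and 0.0102) and Ccne1 on day 6 (0.0075). The cause was not tested. Leaving out a library moved these uncalled differences across 0. KO against WT on day 0 ran from -0.0096 to 0.064 for Cdk4, -0.12 to 0.16 for Cdkn1b and -0.12 to 0.15 for Cdkn2c. Dex against WT ran from -0.21 to 0.058 for Cdkn2c on day 0, -0.042 to 0.0032 for Ccnd1, -0.063 to 0.025 for Cdkn1b and -0.00031 to 0.12 for Cdkn2d on day 2, and -0.064 to 0.0072 for Ccne1 on day 6. No Dex against KO on day 2 ran from -0.011 to 0.14 for Ccne2. Dex against no Dex ran from -0.054 to 0.017 for Ccnd3, -0.0074 to 0.034 for Ccne1 and -0.031 to 0.10 for Cdkn2c on day 0, -0.13 to 0.10 for Cdkn2c on day 2, and -0.052 to 0.042 for Ccnd1 and -0.43 to 0.20 for Cdk6 on day 6. Its interaction with day ran from -0.032 to 0.050 for Cdk4, -0.14 to 0.50 for Cdk6 and -0.017 to 0.048 for Cdkn1b.

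Rescaling moved the share of higher calls over all genes by more than 10 points for KO against WT on day 2 (63.8% to 50.6%) and day 4 (60.3% to 49.7%), no Dex against KO on day 0 (39.3% to 57.2%) and day 4 (36.3% to 51.9%), Dex against no Dex on day 0 (62.9% to 48.2%) and day 2 (28.7% to 50.2%), Dex against WT on day 0 (38.2% to 49.2%), and day 6 against day 0 without Dex (58.6% to 48.5%).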
